A study of Homo sapiens with 4 samples.

Results

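The cytosolic ribosomal protein genes were described by their H3K27ac peaks in MOLM13 cells under a pair of drug treatments. Members were the protein-coding genes of chromosomes 1 to 22 with a symbol of RPL or RPS followed by digits and, optionally, A, X or L, together with RPLP0, RPLP1, RPLP2 and RPSA, and without the RPS6K kinases and RPS19BP1. This gave 77 of 18787 protein-coding genes, of which 40 encoded proteins of the large subunit, 30 proteins of the small subunit (RPSA among them), 3 the stalk proteins and 4 the paralogs RPL3L, RPL10L, RPL39L and RPS27L. MOLM13 is a human acute myeloid leukemia cell line in which MLL is fused to AF9. The treatments lasted 16 hours and consisted of 500 nM of OTX015, an inhibitor of the BET bromodomain proteins, or of 500 nM of OTX015 together with 500 nM of the Menin inhibitor SNDX-50469 (the combination). Both groups thus received OTX015, and each held 1 ChIP library of 1 cell line. Vehicle and SNDX-50469 alone were not analysed here. With 1 library per treatment no difference between treatments had a replicate check, no test was possible, and all values below describe these libraries.

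Ribosomal proteins assemble with ribosomal RNA into the large and small subunits of the cytosolic ribosome, which every growing cell needs in nearly equal numbers of each protein. Their mRNAs are among the most abundant of the cell and begin with a run of pyrimidines, the terminal oligopyrimidine (TOP) tract, through which mTOR signaling sets their translation. H3K27ac is an acetylation of histone H3 at lysine 27 that marks active promoters and enhancers, and the proteins of the BET family bind acetylated histones.

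The sequences around the transcription start are shown first, because the TOP tract is what most members share and because the peaks were placed relative to this point. RefSeq held a promoter for 60 of the 77 members (GRCh38.p14). RPL3L, RPL5, RPL7, RPL8, RPL23, RPL23A, RPL30, RPL37, RPL39L, RPS2, RPS15A and RPS20 were among those it did not hold. Each line gives 20 bases before and 20 bases after the start, 5′ to 3′ on the strand of the gene, and the capitals mark the longest run of a C followed by at least 4 pyrimidines that begins within 10 bases of the start. The first set holds members with a promoter peak under both treatments.
RPS19 (chr19:41860235-41860274, plus strand): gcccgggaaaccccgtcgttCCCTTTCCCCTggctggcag
RPS18 (chr6:33272055-33272094, plus strand): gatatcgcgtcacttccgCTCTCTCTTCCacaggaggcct
RPS14 (chr5:150449720-150449759, minus strand): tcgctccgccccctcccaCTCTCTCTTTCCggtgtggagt
RPS10 (chr6:34426050-34426089, minus strand): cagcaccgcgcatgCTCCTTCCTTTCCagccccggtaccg
RPS29 (chr14:49598691-49598730, minus strand): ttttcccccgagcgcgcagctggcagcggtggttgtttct
RPL7A (chr9:133348198-133348237, plus strand): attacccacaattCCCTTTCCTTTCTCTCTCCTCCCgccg
RPL13A (chr19:49487588-49487627, plus strand): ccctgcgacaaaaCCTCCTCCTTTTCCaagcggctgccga
RPL19 (chr17:39200263-39200302, plus strand): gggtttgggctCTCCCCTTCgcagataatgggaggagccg
RPL21 (chr13:27251538-27251577, plus strand): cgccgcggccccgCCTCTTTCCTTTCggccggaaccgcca
The next set holds RPS28 and RPL27A, with a promoter peak under OTX015 only, and RPL28 and RPLP2, with a promoter peak under the combination only.
RPS28 (chr19:8321476-8321515, plus strand): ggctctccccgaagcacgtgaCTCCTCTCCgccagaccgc
RPL27A (chr11:8682772-8682811, plus strand): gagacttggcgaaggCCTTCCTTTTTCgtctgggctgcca
RPL28 (chr19:55385912-55385951, plus strand): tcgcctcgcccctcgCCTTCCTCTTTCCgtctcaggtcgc
RPLP2 (chr11:809947-809986, plus strand): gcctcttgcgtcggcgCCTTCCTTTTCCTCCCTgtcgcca

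The tract was present in 51 of 60 members (85.0%) and in 33.8% of the 15101 promoters of all genes. Its median length was 11 bases in the members that held it and 6 bases over all promoters that held it, and RPL7A, which encodes a large subunit protein, had the longest of the members with 23 bases. RPS29 had none at the RefSeq start. Members with and without an H3K27ac peak did not separate by this feature. The tract stood in 23 of the 27 sequenced members with a promoter peak under either treatment (85.2%) and in 28 of the 33 without (84.8%).

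Other motifs were searched on both strands in the 300 bases from 250 before to 50 after the start. CCGGAAG, bound by ETS factors such as GABPA, occurred in 35.0% of members and 14.3% of all promoters. TCTCGCGAG occurred in 10.0% of members and 1.05% of all promoters, and AAGATGGC, bound by YY1, in 10.0% and 3.87%. GGGCGG of the SP family (55.0% and 58.7%), CCAAT of NFY (36.7% and 36.1%) and TATAAA (10.0% and 9.83%) were about as frequent in members as elsewhere. CACGTG, the E-box of MYC and MAX, was found in 5.00% of members and 8.71% of all promoters, and GCGCATGCG of NRF1 in 1.67% and 2.79%. An E-box stood in 3 of the 27 sequenced members with a promoter peak under at least 1 treatment (11.1%) and in 0 of the 33 without. These counts are too small to read as a difference. The ETS letters stood in 11 of 27 and 10 of 33. The median GC content was 59.3% in members and 62.7% over all promoters, and the ratio of observed to expected CpG was 0.911 and 0.765. The promoters of 3 members with different peak patterns are given from 250 bases before to 30 after the start, again with the pyrimidine tract in capitals. RPS19 had the highest fold enrichment of all members under OTX015, RPS28 the largest deficit of cover with the combination, and RPLP2 a peak under the combination only. In RPS19, TCTCGCGAG or its reverse complement began at positions -68, -49 and -48, the last a pair of overlapping matches. RPS28 had an E-box at -6 and AAGATGGC, on the other strand, at -142, and RPLP2 had CCGGAAG, on the other strand, at -208.
RPS19 (chr19:41860005-41860284, plus strand): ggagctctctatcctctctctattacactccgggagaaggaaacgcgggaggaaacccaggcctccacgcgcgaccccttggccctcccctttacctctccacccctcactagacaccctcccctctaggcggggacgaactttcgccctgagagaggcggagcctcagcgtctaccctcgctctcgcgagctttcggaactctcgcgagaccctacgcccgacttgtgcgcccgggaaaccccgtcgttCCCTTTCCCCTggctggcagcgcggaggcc
RPS28 (chr19:8321246-8321525, plus strand): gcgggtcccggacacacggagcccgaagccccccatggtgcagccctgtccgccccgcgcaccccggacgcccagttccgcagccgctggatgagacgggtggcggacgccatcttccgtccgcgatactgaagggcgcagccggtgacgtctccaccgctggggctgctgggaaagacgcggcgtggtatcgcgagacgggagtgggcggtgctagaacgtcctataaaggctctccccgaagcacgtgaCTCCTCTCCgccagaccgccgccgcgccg
RPLP2 (chr11:809717-809996, plus strand): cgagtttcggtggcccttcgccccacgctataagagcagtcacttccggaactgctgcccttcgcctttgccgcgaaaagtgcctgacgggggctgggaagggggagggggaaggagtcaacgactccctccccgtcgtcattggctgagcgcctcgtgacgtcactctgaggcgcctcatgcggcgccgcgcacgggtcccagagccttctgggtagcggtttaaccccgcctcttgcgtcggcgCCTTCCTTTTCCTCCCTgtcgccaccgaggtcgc

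Peak lists of unequal depth stood behind every comparison. The OTX015 list held 55852 broad peaks over 26.0 Mb and the combination list 86207 over 44.4 Mb. Read numbers were not given in the lists. From the lowest peaks of each list, the background was inferred at 0.764 and 1.47 fragments per base, so the combination library was 1.92 times deeper on this scale. Peaks were called down to an enrichment of 6.54 times background under OTX015 and 4.76 times under the combination. This enrichment is another scale than the deposited fold, which was taken to include a pseudocount of 1. The same limits were folds of 3.40 and 3.24. Chromosome 8 held 43.4% of OTX015 peaks and 48.1% of combination peaks. Chromosomes 5, 6, 8, 13, 19 and 20, called dense here, had 7.72 to 80.8 kb of cover per Mb under OTX015, and the other chromosomes 1.49 to 6.90 kb. The results are therefore given also for the 52 members outside the dense chromosomes. Promoter peaks lay at 8 of 11 myeloid markers in each list (72.7%, against 15.5% and 16.0% of all genes). They lay at 0 of 3 B cell markers in both, and at 0 and 1 of 3 T cell and 0 and 1 of 3 erythroid markers. The B and T cell markers all lie outside the dense chromosomes. There, 4 of 5 myeloid markers had a peak in each list (80%, against 12.0% and 9.82% of all genes there). These lists of markers are short.

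A promoter peak, that is, a peak less than 1 kb from the gene's 5′ end on either side, was present at 29 of 77 members under OTX015, or 37.7% (Wilson 95% interval 27.7 to 48.8, which covers counting over genes only). The share over all 18787 genes was 15.5%. Under the combination, 25 members had a promoter peak, or 32.5% (23.1 to 43.5), against 16.0% of all genes. The members were thus marked more often than genes at large in both lists. Of all members, 15 had a peak in both lists (19.5%, against 9.38% of all genes), 14 under OTX015 only (18.2% against 6.11%), 10 under the combination only (13% against 6.61%) and 38 in neither. Of the members with a peak under OTX015, 51.7% also had one under the combination (60.6% of all genes), and of those with a peak under the combination, 60% also had one under OTX015 (58.7%). Among peaks with a −log10 q of at least 2, members with a promoter peak numbered 10 under OTX015 (13%, against 5.08% of all genes) and 6 under the combination (7.79% against 4.68%). With combination peaks limited to those that reach the lowest enrichment of the OTX015 list, 6.54 times background, 1 member, RPL7, kept one (1.30%, against 1.01% of all genes). Its peak had an enrichment of 7.49. Since a broad peak list reports only what passed its threshold, a missing peak does not mean that the mark was absent.

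Outside the dense chromosomes, 12 of 52 members had a promoter peak under OTX015 (23.1%, against 12.0% of all genes there) and 10 under the combination (19.2% against 9.82%). Only 3 of these genes, RPS29, RPL7A and RPL19, had a peak in both lists (5.77% against 6.20%), with 9 under OTX015 only (17.3% against 5.76%) and 7 under the combination only (13.5% against 3.62%). On the dense chromosomes, 17 of 25 members had a peak under OTX015 (68.0% against 25.6%) and 15 under the combination (60% against 33.7%). Here 12 had a peak in both (48.0% against 18.5%), 5 under OTX015 only (20.0% against 7.10%) and 3 under the combination only (12.0% against 15.2%). The shared peaks lay mostly on the dense chromosomes. Outside them, with the combination list shortened to as many peaks as the OTX015 list, 6 of 52 members had a promoter peak under the combination (11.5% against 7.26%). At a −log10 q of at least 2, 3 of 52 had one under OTX015 (5.77% against 3.87% of all genes there) and 1 under the combination (1.92% against 2.79%). At the lowest enrichment of the OTX015 list 0 of 52 had one under the combination (0.631% of all genes there). The counts at these last settings are too small to tell whether the higher share was lost.

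**Figure D1:**
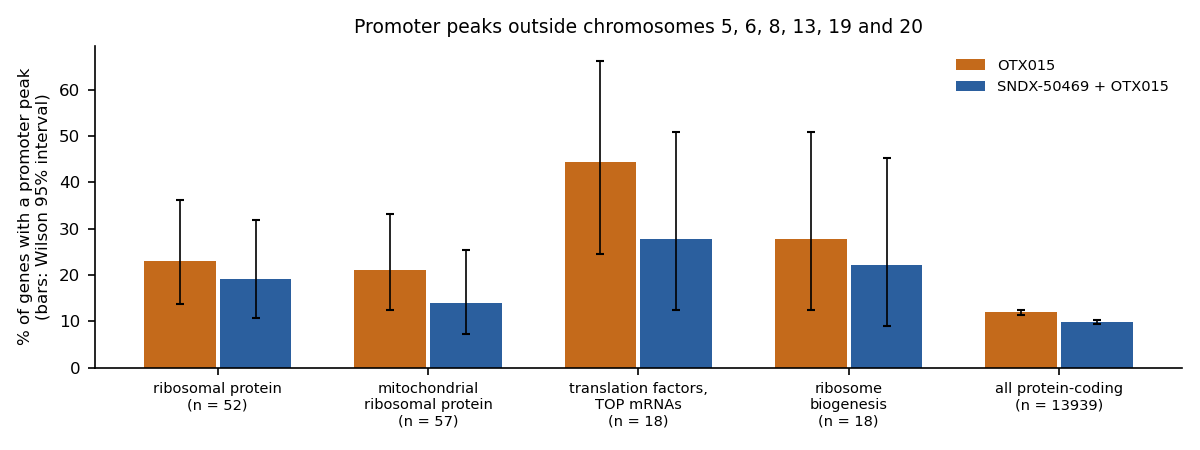
Share of genes with a promoter peak (vertical axis, percent) outside chromosomes 5, 6, 8, 13, 19 and 20, for the ribosomal protein genes, 3 related lists and all protein-coding genes, with OTX015 in orange and the combination in blue. Bars are shares and whiskers Wilson 95% intervals that cover counting over genes. The ribosomal protein genes stood at 23.1% and 19.2% and all genes at 12.0% and 9.82%.

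The strongest promoter peaks belonged to a few members. Folds are given here as deposited, on the scale with the pseudocount. Under OTX015 the highest fold was at RPS19, a small subunit protein mutated in Diamond-Blackfan anemia, with 5.48, which ranked 116 among the 2910 promoter peaks of all genes. RPS15 (5.37), RPL7 (5.15), RPL27A (4.75) and RPL10A (4.72) followed. Of these 5, only RPL7 and RPS19 also had a promoter peak under the combination. There RPL7 was highest with 4.86, ranking 51 of 3005, followed by RPS19 (4.0), RPS2 (3.90), RPL8 (3.86) and RPS20 (3.83). Over the members with a peak, the median fold was 3.86 under OTX015, the same as over all genes (3.86), and 3.56 under the combination (3.55). Most members with a peak were near the lower limit of the lists. Of their promoter peaks, 10 of 29 under OTX015 (34.5%, against 32.8% of all genes with a peak) and 6 of 25 under the combination (24.0% against 29.3%) had a −log10 q of at least 2.

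The 15 members with a peak in both lists allowed the peaks themselves to be set side by side. They included RPL7, RPL7A, RPL8, RPL13A, RPL19, RPL21, RPL30 and RPL37 of the large subunit and RPS10, RPS14, RPS18, RPS19 and RPS29 of the small subunit. The fold was lower under the combination in 14 of them, RPL8 being the exception (3.83 under OTX015 and 3.86 under the combination), and in 78.3% of the 1763 such genes overall. The median ratio of the combination to OTX015 was 0.889 in members and 0.909 over all genes. The lists have different lower limits, which bear on this comparison. So does depth, because of the pseudocount in the fold. As times the inferred background, without the pseudocount, all 15 members were lower under the combination, RPL8 among them (7.54 and 5.81). So were 99.5% of all such genes, and the median ratio was 0.670 in members and 0.685 over all genes. At RPS19 the fold was 5.48 under OTX015 and 4.0 under the combination. At RPS29, a small zinc-binding protein of the small subunit, it was 4.56 and 3.42, and the width of the peak was 1471 bp and 369 bp. The 5′ end used for RPS29 was the outer end of a 27.7 kb gene record and is shared with LRR1. The middle of the peak lay upstream of it, at -166 bp and -137 bp, so the peak cannot be assigned to RPS29 alone. RPL37 had 1 promoter peak under OTX015 and 2 under the combination, which covered 1.49 kb and 1.35 kb of the promoter. Over the 15 members the width was lower under the combination in 9 (60%, against 46.2% of all such genes). RPS14, whose loss of 1 copy underlies the anemia of the 5q- syndrome, had peaks of 649 bp and 420 bp with folds of 3.75 and 3.50.

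**Figure D2:**
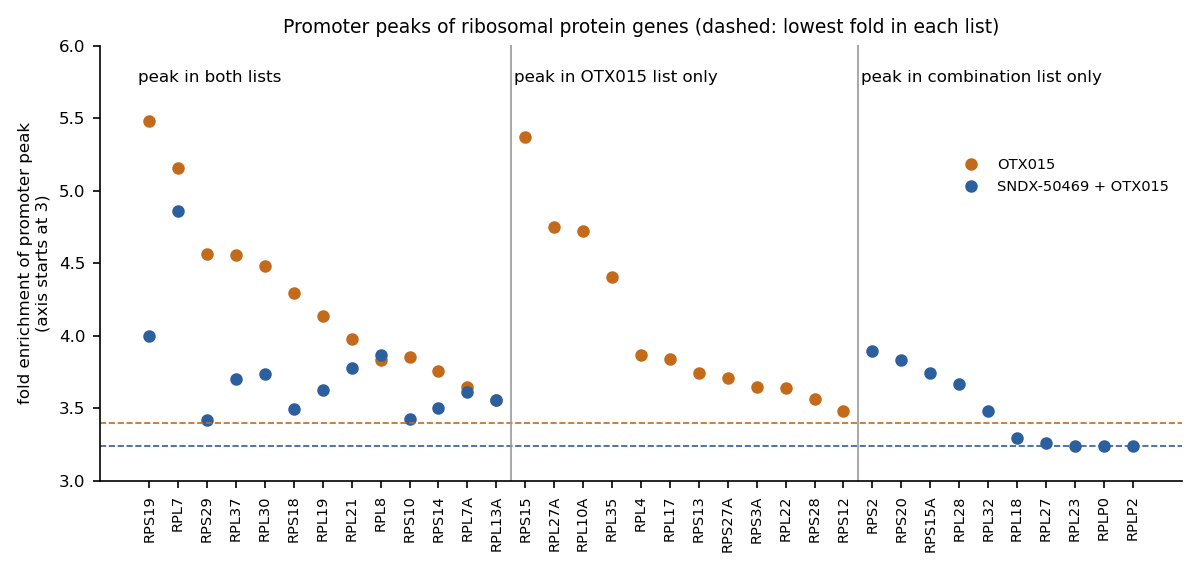
Fold enrichment of the promoter peak (vertical axis, starting at 3) of 35 members with a peak in at least 1 list, OTX015 in orange and the combination in blue, grouped by the lists in which the peak was found. Dashed lines mark the lowest fold in each list, and a missing point means that no peak was listed; RPS19 reached 5.48 under OTX015 and RPL7 4.86 under the combination.

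The 14 members with a promoter peak under OTX015 only included RPL4, RPL10A, RPL17, RPL22, RPL27A and RPL35 of the large subunit and RPS3A, RPS12, RPS13, RPS15, RPS27A and RPS28 of the small subunit. RPL4 and RPL17 line the exit tunnel for the nascent chain, and RPS27A is made as a fusion with ubiquitin. The highest fold of this group was 5.37 at RPS15, whose peak had a −log10 q of 4.07 and spanned 784 bp. RPL27A (−log10 q 2.88), RPL10A (2.93) and RPL35 (2.34) were the others at 2 or more. RPS15 and RPL10A had peaks elsewhere within 10 kb under the combination (2.20 kb and 2.43 kb), so that a listed peak was missing at their promoters but not in their surroundings.

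The 10 members with a promoter peak under the combination only were RPL18, RPL23, RPL27, RPL28 and RPL32, the small subunit genes RPS2, RPS15A and RPS20, and the stalk genes RPLP0 and RPLP2. RPLP0 anchors the P1 and P2 proteins that recruit translation factors to the ribosome. RPLP0, RPLP2 and RPL23 stood at the lowest fold of the list, 3.24, and RPL27 and RPL18 at 3.26 and 3.30. The highest were RPS2, which lies at the mRNA entry of the small subunit (3.90, a peak of 217 bp of which 0.037 kb reached the promoter), RPS20 (3.83) and RPS15A (3.74). RPS2 and RPS20 had a −log10 q of 2.14 and 2.07, and no other member of this group reached 2.

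H3K27ac cover, the length under peaks within 10 kb either side of the 5′ end, was lower with the combination at 19 members (24.7%, against 19.1% of all genes) and higher at 32 (41.6% against 30.2%), with no cover in either list at 26. With the combination list shortened to as many peaks as the OTX015 list, cover was lower at 24 members and higher at 22. Shortening this list can only lower its cover, at any gene. The share of all genes with a promoter peak under the combination then fell from 16.0% to 12.2%. The shares of all genes with less or more cover at this setting are not given, so the counts describe the members only. A difference of at least 1 kb was seen as a deficit at 2 members (2.60% against 2.18%), RPS28 and RPS29, and as an excess at 10 (13% against 7.36%). Summed over the members, cover was 35.1 kb under OTX015 and 71.2 kb under the combination, a ratio of 2.03, where the ratio over all genes was 1.47. Without chromosome 8 the sums were 26.3 kb and 41.2 kb (ratio 1.57, all genes 1.25). Outside the dense chromosomes they were 7.65 kb and 8.23 kb, with less cover at 14 of 52 members (26.9% against 18.6%) and more at 13 (25% against 21.5%). The excess of cover with the combination thus lay mostly on the dense chromosomes, where the sums were 27.5 kb and 63.0 kb. Outside them, without RPS29, the sums were 6.18 kb and 7.86 kb (ratio 1.27, all genes there 0.995).

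**Figure D3:**
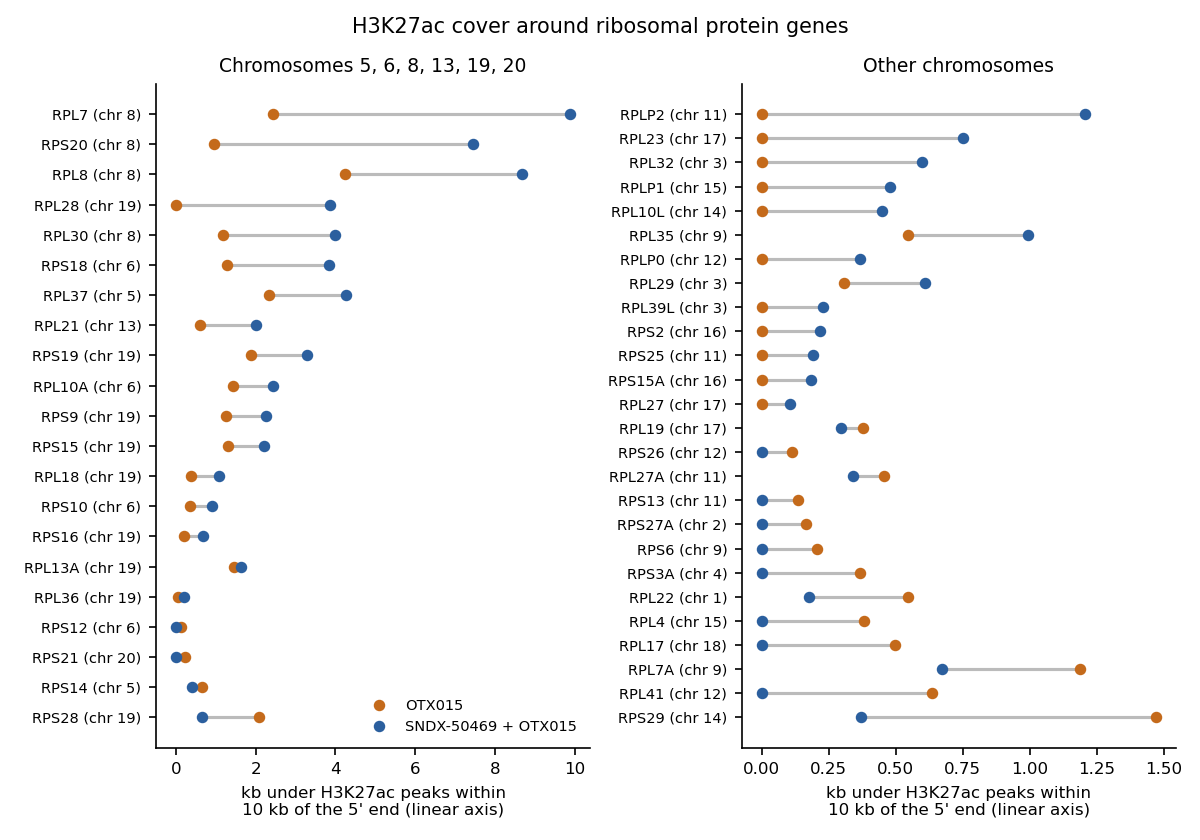
H3K27ac cover within 10 kb of the 5′ end (horizontal axis, kb, with different ranges in the panels) of 47 members with cover, OTX015 in orange and the combination in blue, joined by a grey line, on the dense chromosomes (left) and the others (right). RPL7 had the largest excess under the combination, from 2.44 kb to 9.88 kb, and RPS28 the largest deficit, from 2.08 kb to 0.650 kb.

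All 4 members on chromosome 8 had more cover with the combination, as did 83.8% of the 668 genes there, so their direction is that of the chromosome. RPL7 had 2.44 kb under OTX015 and 9.88 kb under the combination. RPS20, part of the head of the small subunit, had 0.956 kb and 7.44 kb. RPL8, which lies by the peptidyl transferase center, had 4.25 kb and 8.68 kb, and RPL30 had 1.18 kb and 3.98 kb. The chromosome around them was itself covered more. In the 10 Mb centered on RPL7, 6.74% of bases lay under OTX015 peaks and 16.5% under combination peaks, and the figures were 9.64% and 22.8% around RPS20, 14.5% and 17.8% around RPL8, and 12.6% and 37% around RPL30. The part of this surrounding in the members' excess was not tested.

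The other large excesses were also on dense chromosomes, except for RPLP2 on chromosome 11. RPL28, on chromosome 19, had no cover under OTX015 and 3.87 kb under the combination, of which 3.76 kb lay beyond 1 kb of the 5′ end. RPS18, on chromosome 6, had 1.27 kb and 3.85 kb. RPL37, on chromosome 5, had 2.34 kb and 4.28 kb. RPL21, on chromosome 13, had 0.600 kb and 2.01 kb, and RPS19, on chromosome 19, 1.89 kb and 3.28 kb. RPLP2 had no cover under OTX015 and 1.20 kb under the combination. For RPS18, RPL37 and RPS19 the promoter held no more cover with the combination (0.541 kb and 0.445 kb, 1.49 kb and 1.35 kb, 0.720 kb and 0.692 kb), so that the excess lay farther out.

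The largest deficit was at RPS28, on chromosome 19, which had 2.08 kb under OTX015 and 0.650 kb under the combination. In windows of 5 kb the difference was -0.185 kb, smaller than that of RPS29 (-1.10 kb), and among peaks with a −log10 q of at least 2 it was 0. The 0.791 kb at its promoter had no counterpart under the combination. This promoter is shared with NDUFA7, a subunit of mitochondrial complex I. RPS29, on chromosome 14, had 1.47 kb and 0.369 kb, all within 1 kb of the 5′ end. This end is shared with LRR1, so the deficit cannot be assigned to RPS29 alone. RPL7A, next to MED22 on chromosome 9, had 1.19 kb and 0.674 kb. RPL41, the smallest of the ribosomal proteins, had 0.635 kb under OTX015, none of it at the promoter, and no cover under the combination. RPL17 (0.497 kb), RPL4 (0.381 kb) and RPS3A (0.366 kb) likewise had cover under OTX015 only, and RPL22 had 0.544 kb and 0.175 kb. These deficits were each under 1 kb except at RPS28 and RPS29.

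The change was uneven within the 10 kb windows. Within 1 kb of the 5′ end, summed cover of the members was 16.1 kb under OTX015 and 12.3 kb under the combination, a ratio of 0.764, where all genes had a ratio of 1.09. From 1 to 10 kb it was 19 kb and 58.9 kb, a ratio of 3.10, where all genes had 1.58. Near the 5′ end, 24 members had less cover (31.2%, against 10.3% of all genes) and 15 had more (19.5% against 11.6%). Farther out, 8 had less (10.4% against 15.9%) and 30 had more (39.0% against 28.8%). Without chromosome 8 the promoter ratio was 0.686 (all genes 0.969) and the outer ratio 2.47 (1.34). Outside the dense chromosomes, members had 5.06 kb and 3.39 kb near the 5′ end (ratio 0.670, all genes 0.842) and 2.59 kb and 4.83 kb farther out (ratio 1.87, all genes 1.06). RPS29 decided the first of these: without it the sums near the 5′ end were 3.59 kb and 3.03 kb, a ratio of 0.842 that equals that of all genes, so no difference from genes at large was left there. Over all chromosomes the promoter ratio without RPS29 was 0.816. With the combination list shortened to as many peaks as the OTX015 list, cover was 9.85 kb near the 5′ end and 46.5 kb farther out. When combination peaks had to reach the lowest enrichment of the OTX015 list, 1160 of them remained. These held 1.5 kb near the members' 5′ ends and 1.29 kb farther out, so the outer excess was not seen at this limit. Both settings shortened only the combination list, so neither could have turned the deficit near the 5′ end.

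**Figure D4:**
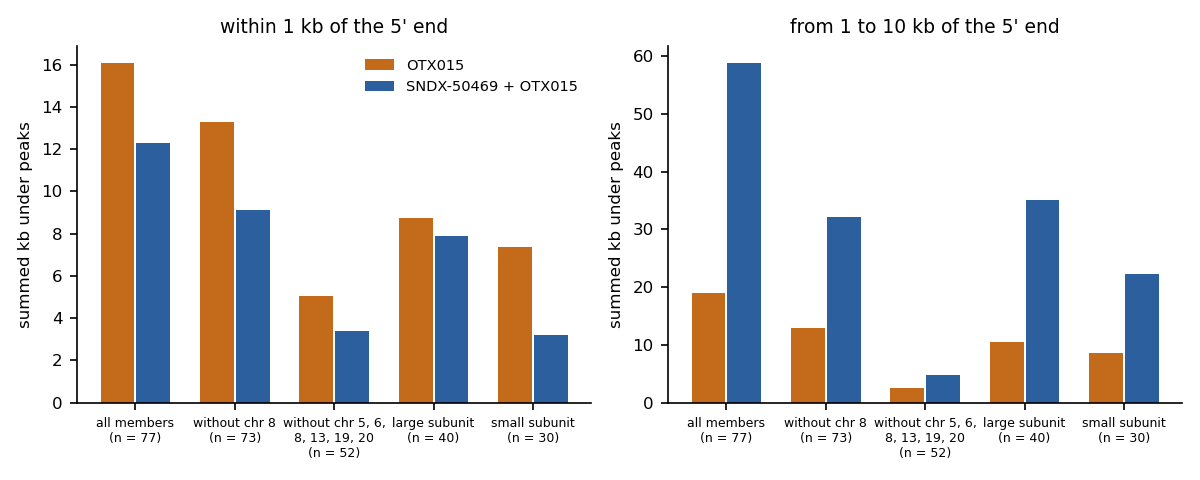
Summed length under H3K27ac peaks (vertical axes, kb, with different ranges) within 1 kb of the 5′ end (left) and from 1 to 10 kb (right), OTX015 in orange and the combination in blue, for all 77 members and 4 subsets. Bars are sums over genes from 1 library each; near the 5′ end each subset had less cover with the combination, and farther out each had more.

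By subunit, the 30 small subunit genes had 7.35 kb near the 5′ end under OTX015 and 3.22 kb under the combination (ratio 0.438), and the 40 large subunit genes 8.75 kb and 7.89 kb (0.902). Promoter peaks were found at 14 and 9 small subunit genes and at 15 and 14 large subunit genes. Within 10 kb, small subunit genes had 15.9 kb and 25.5 kb, with less cover at 12 and more at 11, and large subunit genes 19.2 kb and 43.0 kb, with less at 7 and more at 16. The 3 stalk genes had no cover under OTX015 and 2.05 kb under the combination, and the 4 paralogs, which are duplicates of the main genes and in part restricted to certain tissues, no promoter peak in either list. Near the 5′ end, RPS29, whose end is shared with LRR1, held 1.47 kb and 0.369 kb of the small subunit sums. RPL7, RPL8 and RPL30 of the large subunit lie on chromosome 8, where 83.8% of genes had more cover with the combination. No test of the difference between subunits was made.

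The peaks sat mainly just downstream of the start. At 300 bp downstream, 24.7% of members were covered under OTX015 (19 of 77), the highest of any distance, where the highest over all genes was 7.31%, also at 300 bp. Under the combination the highest share was 16.9% (13 of 77) at 450 bp, and over all genes 6.19% at 350 bp. The middle of the promoter peak lay downstream of the 5′ end in 75.9% of members with a peak under OTX015 (all genes 65.6%) and in 88.0% under the combination (60.7%), at a median of 341 bp and 522.5 bp. Of the cover within 1 kb, 67.6% was downstream under OTX015 (all genes 62.4%) and 76.8% under the combination (57.4%). At 2500 bp upstream, a distance picked after the profile was seen, 0 members were covered under OTX015 and 9 under the combination (11.7%), where all genes had 1.61% and 2.74%.

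**Figure D5:**
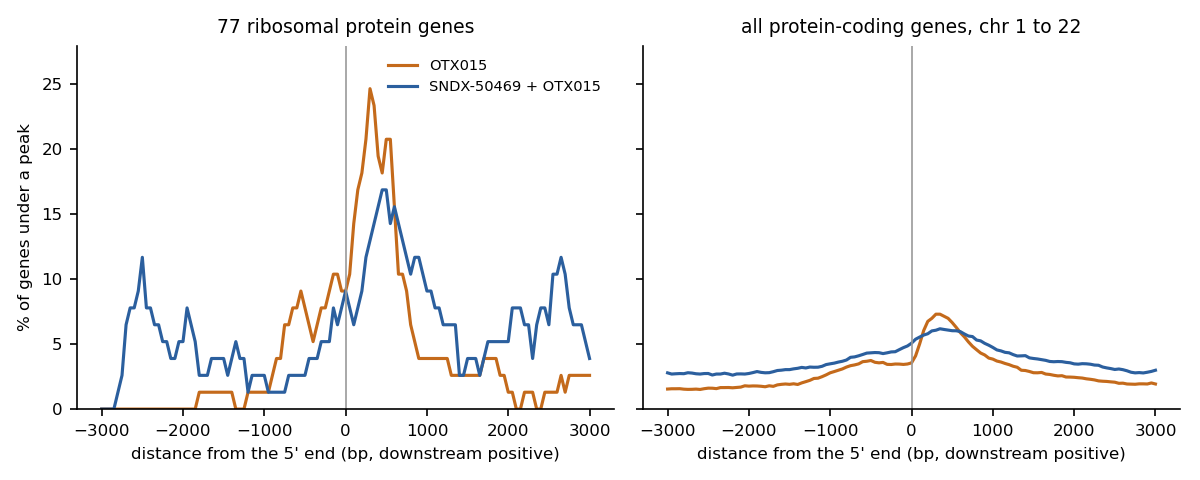
Share of genes under an H3K27ac peak (vertical axis, percent) by distance from the 5′ end (horizontal axis, bp, downstream positive, in steps of 50 bp), for the 77 members (left) and all protein-coding genes of chromosomes 1 to 22 (right), OTX015 in orange and the combination in blue. The members reached 24.7% at 300 bp under OTX015 and 16.9% at 450 bp under the combination.

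Several members cannot be told apart from a neighbor. The 5′ end of another protein-coding gene record lay within 1 kb for 18 members, and 13 of these had a promoter peak under either treatment, against 26 of the other 59. The same shares over all genes are not given, so these counts are not read as a trait of the members. For RPL17 and RPS10, both with a peak, the other record was RPL17-C18orf32 and RPS10-NUDT3, which carry the member's own name. Apart from those named above, RPL7 lies next to RDH10, RPS18 next to VPS52, RPL27A next to TRIM66 and RPLP2 next to PIDD1. The 10 kb windows of RPS2 and RPL3L overlap, but RPL3L had no cover in either list, so none was counted for both. The window of RPL13A overlaps that of another member, and both had cover in both lists. Part of their cover could thus be counted for both. Members also host small nucleolar RNA genes, which guide the modification of ribosomal RNA, in their introns. The 27 members with such genes had a promoter peak in 48.1% of cases under OTX015 and in 48.1% under the combination, and the 50 without in 32.0% under OTX015 and 24.0% under the combination.

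Processed copies of the members are scattered over the genome, and short reads can be shared between a gene and its copies. Of 1892 annotated pseudogenes of the members, 1.53% overlapped a peak under OTX015 and 3.86% under the combination. Outside the dense chromosomes these were 3 (0.217%) and 10 (0.722%) of 1385. The part of shared reads in the members' peaks was not tested, and how the aligner placed reads that fit several copies was not given in the sources used here.

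The 38 members without a promoter peak in either list included RPL5 and RPL11, which bind MDM2 when ribosome assembly fails, and RPS6, the target of the S6 kinases. Of the 38, 12 had cover elsewhere within 10 kb, in which RPS9 stood highest with 1.26 kb under OTX015 and 2.25 kb under the combination, and 26 had none.

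Other genes of translation were examined by the same counts. The 77 genes of mitochondrial ribosomal proteins, which serve the separate ribosome of mitochondria, had a promoter peak at 19 under OTX015 (24.7%, interval 16.4 to 35.4) and 17 under the combination (22.1%), and near the 5′ end 9.98 kb and 8.79 kb (ratio 0.881). The 27 translation factors and other genes with TOP mRNAs had a peak at 14 (51.9%, 34.0 to 69.3) and 12 (44.4%), and the 26 genes of ribosome biogenesis at 8 (30.8%, 16.5 to 49.99) and 7 (26.9%). Over all chromosomes, near the 5′ end, the translation factors had a ratio of 1.09 and the biogenesis genes of 1.48. Outside the dense chromosomes the ratio was 0.614 for the mitochondrial list, 0.756 for the translation factors and 0.994 for the biogenesis genes. The members stood at 0.670 there, or at 0.842 without RPS29. A further 11 ribosomal protein genes that the rule left out, such as RPS4X, RPL10 and FAU, had a promoter peak at 6 and 2. Their ratio near the 5′ end was 0.407 over all chromosomes. The intervals of these lists overlapped that of the ribosomal protein genes under OTX015, and the differences between lists were not tested.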

How the data were processed

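H3K27ac ChIP-seq was performed on MOLM13 cells, with 1 ChIP library per treatment; the 2 input libraries carried no values used here. Chromatin was sonicated, immunoprecipitated and tagmented with Tn5. Per the submitters' processing notes, reads were converted with bcl2fastq 2.17, trimmed with Trimmomatic 0.33 and aligned with Bowtie 1.1.2 to GRCh38, and peaks were called with MACS2 2.1.0. The methods of the study name TopHat2 as the aligner. Use of the input and the settings of the caller were not given in the sources used here. The sample titles write H2K27Ac and the antibody label H3K27Ac.

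The authors deposited 1 broad peak list per library, with columns for a score, the fold enrichment (a ratio to background) and, on the −log10 scale, the p-value and q-value of each peak. The deposited values hold no read counts, so depth was inferred from the lowest peaks, with a pseudocount of 1.

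The 5′ end was the outer end of the gene record in RefSeq GRCh38.p14. Strands came from the RefSeq promoter table (15843 genes) or, by symbol and chromosome, from GENCODE v44 (3832 genes). Of 20037 protein-coding genes, 19675 had a strand and 18787 of these lay on chromosomes 1 to 22. A promoter was 1 kb either side of the 5′ end, an overlap of at least 1 bp counted, and the peak with the highest −log10 p was used where there were several. Cover was the union of peaks within 10 kb. Shares carry Wilson 95% intervals (scipy 1.17.1, Python 3.11.15, pandas 2.3.3). The scripts were tested on simulated data and recovered 200 of 200 known values in each of 3 steps.

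The members, the lists of other genes and the dense chromosomes were chosen with earlier results of these data known. Named were the 10 members with the largest excess and the 10 with the largest deficit of cover, the 5 with the highest fold in each list, and all with a promoter peak in 1 list; some members are counted but not reported here by name, and values of other members were chosen after they were seen. Alternatives were stronger peaks, equal numbers of peaks, a common enrichment, other windows and overlaps, joined peaks, and members left out; the 5′ end of the RefSeq promoter table, leaving out chromosome 8, leaving out RPS29, and the split of cover at 1 kb were added after seeing the data.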

Additional observations from a re-analysis of the deposited data

How the results depend on the processing

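No paired analysis was possible because each treatment had 1 library. The cause of each change below was not tested, except that a setting that keeps fewer peaks or members gives lower counts by its construction. With peaks of a −log10 q of at least 2, promoter peaks were found at 10 members under OTX015 and 6 under the combination, with 2 in both lists, 8 under OTX015 only, 4 under the combination only and 63 in neither. Of all 18787 genes, 444 had one in both lists, 510 under OTX015 only and 435 under the combination only. Counts of cover at the alternative settings stand without a share over all genes and describe the members only. Cover was then lower at 7 and higher at 10 members, with sums of 9.46 kb and 14.9 kb, of which 8.22 kb and 4.24 kb lay within 1 kb and 1.24 kb and 10.7 kb farther out. With equal numbers of peaks, cover was lower at 24 members and higher at 22, and 5 members had a promoter peak under the combination only (776 of all 18787 genes). At a common enrichment over background, which kept 1160 combination peaks and a promoter peak at 1.01% of all genes, the combination had a promoter peak at 1 member, 1 in both, 28 under OTX015 only and 0 under the combination only. Of all 18787 genes, 181 had one in both, 2729 under OTX015 only and 9 under the combination only. Cover was lower at 38 and higher at 1, with 2.79 kb under the combination (1.5 kb within 1 kb, 1.29 kb farther out). Without the dense chromosomes there were 12 and 10 members with a promoter peak, 3 in both and 9 under OTX015 only, cover was higher at 13, and the sums were 7.65 kb and 8.23 kb (5.06 kb and 3.39 kb within 1 kb, 2.59 kb and 4.83 kb farther out). With an overlap of at least 200 bp, 5 members had a promoter peak under the combination only, for which the share over all genes is not given. The sums were 22.7 kb and 43.1 kb in windows of 5 kb and 73.9 kb and 135 kb in windows of 20 kb either side. Without chromosome 8 the combination had 41.2 kb, of which 32.1 kb lay beyond 1 kb.

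Differences in cover of single members, combination minus OTX015, changed sign with peaks of a −log10 q of at least 2 at RPL37 (-1.49 kb), RPS18 (-0.541 kb) and RPL30 (-0.213 kb). At the common enrichment they changed sign at RPL8 (-4.25 kb), RPL37 (-2.34 kb), RPS19 (-1.89 kb), RPS18 (-1.27 kb), RPL30 (-1.18 kb), RPS20 (-0.956 kb) and RPL21 (-0.600 kb). Of the 12 members with a difference of at least 1 kb, 2, RPL7 and RPS29, kept their direction under all alternatives run. Their 5′ ends are shared with RDH10 and LRR1. The common enrichment kept all 55852 OTX015 peaks and 1160 combination peaks. It could therefore turn an excess into a deficit, but not a deficit such as that of RPS29 into an excess. Equal numbers of peaks likewise shortened only the combination list. Near the 5′ end (1 kb either side) the summed cover was smaller under the combination at each setting run for it (without RPS29 the ratio was 0.816). With equal numbers of peaks and at the common enrichment this was fixed in advance, because only the combination list was shortened. Cover farther out was higher under the combination except at the common enrichment, where its cover could only fall. Depth, itself inferred, is one limit among several: on that scale peaks between 4.76 and 6.54 times background could be listed only in the combination library.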
